A study of Camellia reticulata with 27 samples.

Results

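Buds of the red cultivar SZT (Shizitou) were compared with late buds of MN (Manao), the white-red cultivar that arose from SZT as a bud variant, by RNA sequencing of petals. The comparison took 6 of the 27 libraries of the series, 3 of SZT at the bud stage and 3 of MN at bud stage 3. Expression was given as FPKM, a fragment count scaled to transcript length and library size, for 225938 transcripts of a de novo assembly of Camellia reticulata. A transcript was tested if its mean FPKM was at least 5 in SZT buds or in MN late buds, and 35479 transcripts met this. Of these, 25739 (72.5%) reached 5 in both groups, 4630 only in SZT and 5110 only in MN. Just inside the limit stood Cluster-94315.8, with means of 5 and 4.72 FPKM in SZT and MN, and just outside it Cluster-102245.4, with 4.997 and 4.90 FPKM.

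The plants of both cultivars grew in open gardens, and no treatment was applied to either. White and red regions were separated only at full bloom, so the bud libraries of MN hold its red tissue together with the white margin. The labels give bud stages 1 and 3 for MN and no such number for SZT, so a difference between the cultivars and a difference in the age of the buds cannot be told apart. Nothing in the labels says whether the 3 libraries of a group came from separate plants. The p-values of limma rest on the spread of libraries within their groups, pooled over all 27 libraries of the series. The transcripts carry names only where the study's list of pigment-related transcripts gives one, and that list holds no markers of petal cell types, so the labelled tissue was not checked against markers. In bulk petals, fewer cells of a type and less RNA per cell cannot be told apart.

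Red color in Camellia petals comes from anthocyanins. Chalcone synthase (CHS) makes the chalcone from which flavonoids are built, flavanone 3-hydroxylase (F3H) makes dihydroflavonols, and these become colored anthocyanidins through dihydroflavonol reductase (DFR) followed by anthocyanidin synthase (ANS). Anthocyanidin reductase (ANR) draws on the same anthocyanidins to make the building blocks of condensed tannins. In flowering plants, MYB and bHLH transcription factors act together to switch on many of these enzyme genes.

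The summed FPKM of the 6 libraries ranged from 1160182 to 1273210, and between 130581 and 147112 transcripts lay above 0. Pearson's r on log2(FPKM + 1) over the tested transcripts ranged from 0.712 to 0.779 within SZT, from 0.732 to 0.779 within MN and from 0.639 to 0.748 between the cultivars. The ranges within and between cultivars overlapped. Read totals per library were not used here, so no counting interval is given.

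The pigment enzymes were described first, as the FPKM summed over the named transcripts of each enzyme. DFR was higher in MN late buds than in SZT buds, and the sums of CHS, F3H, ANS and ANR did not pass an adjusted p under 0.05 in limma. The direction depended on the bud stage of MN. At bud stage 1 of MN the mean DFR sum was 420 FPKM, against 666 FPKM in SZT buds. Likewise, F3H had 1898 against 1963 FPKM, CHS 5276 against 7221 FPKM and ANS 1017 against 1596 FPKM. ANR went the other way, with 5.44 against 0.38 FPKM. DFR had 1019, 833 and 145 FPKM in SZT replicates 1, 2 and 3, and 1362, 1840 and 1390 FPKM in those of MN. All 3 MN libraries lay above all 3 SZT libraries, and SZT replicate 3 stood far below the other two. The log2 difference, MN minus SZT, was 1.60 (SE 0.44, limma adjusted p = 0.0316), and an exact two-sided permutation test gave p = 0.1, the smallest that 3 libraries against 3 allow. Without SZT replicate 3 the log2 difference was 0.72 (limma, adjusted p = 0.0649). The call was also lost without MN replicate 1, 2 or 3, with log2 differences of 1.68, 1.46 and 1.67 (limma, adjusted p = 0.0517, 0.121 and 0.0530).

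F3H, upstream of DFR, had 2008, 2668 and 1212 FPKM in SZT and 3571, 3213 and 2948 FPKM in MN. The libraries of the cultivars did not overlap, but the log2 difference of 0.79 did not pass the threshold (SE 0.26, limma adjusted p = 0.0668, exact permutation p = 0.1). Without SZT replicate 3 it was 0.48 (limma, adjusted p = 0.271), and without SZT replicate 2 it was 1.05 and passed (limma, adjusted p = 0.0238). CHS, the first enzyme, had 8275, 9482 and 3906 FPKM in SZT and 7795, 8131 and 9068 FPKM in MN. The 2 higher SZT libraries lay among or above the MN libraries, and the log2 difference was 0.30 (SE 0.29, limma adjusted p = 0.579, exact permutation p = 0.9). Without SZT replicate 3 its sign turned, to -0.09 (limma, adjusted p = 0.882). ANS had 1893, 2323 and 571 FPKM in SZT and 2564, 1693 and 2170 FPKM in MN. The libraries overlapped, with a log2 difference of 0.63 (SE 0.45, limma adjusted p = 0.428, exact permutation p = 0.6), which was 0.01 without SZT replicate 3 (limma, adjusted p = 0.992). The 2 ANR transcripts on the study's list lay below the filter in both cultivars. They summed to 0.62, 0 and 0.51 FPKM in SZT and 0, 1.04 and 0 FPKM in MN, and Cluster-15097.15 was at 0 in all of these libraries. The paper, by contrast, reports high ANR expression in MN buds and low levels in SZT. These transcripts are therefore not taken to stand for the whole enzyme, and the reason for the contrast was not tested.

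**Figure D1:**
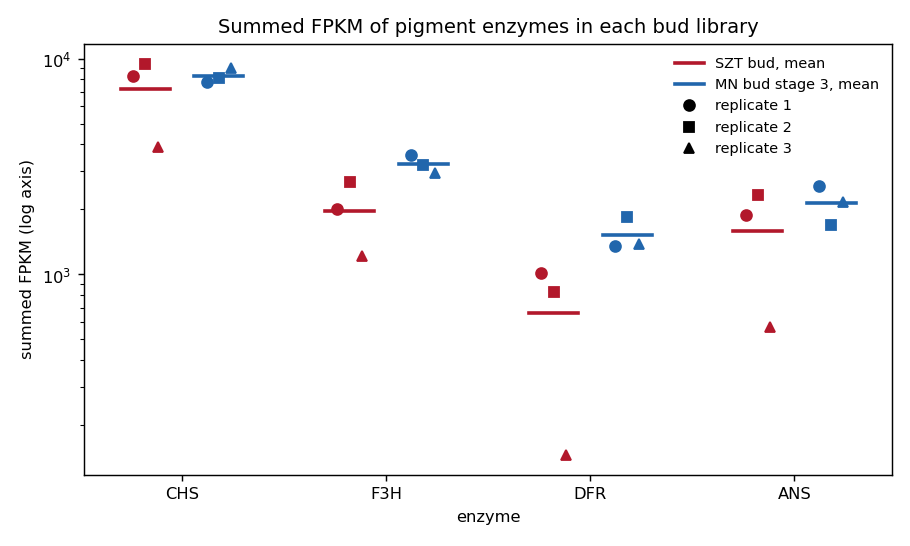
Summed FPKM (log axis) of CHS, F3H, DFR and ANS in the 3 SZT bud libraries and the 3 MN bud stage 3 libraries, with lines at the group means and a symbol for each replicate. SZT replicate 3 was the lowest of the 6 libraries for each of these enzymes, at 145 FPKM for DFR against 833 to 1840 in the others.

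The same library was the lowest of the 6 for all 18 enzyme transcripts that passed the filter. By transcript, 2 of the 18 rose at an adjusted p under 0.05, beside 3.68% of all tested transcripts that were higher and 3.4% that were lower in MN by that limit. The median log2 difference of the 18 was 0.67, with 17 above 0, and that of all tested transcripts was 0.00, with 50.3% above 0. Without SZT replicate 3, 3 of 6 CHS, 5 of 6 F3H, 3 of 3 DFR and 1 of 3 ANS transcripts were above 0, with medians of 0.02, 0.42, 0.54 and -1.35. The study chose these transcripts on these samples, so they are not independent evidence of a direction. The main DFR transcript, Cluster-90241.3, had 978, 808 and 137 FPKM in SZT and 1305, 1799 and 1343 FPKM in MN. It carried nearly the whole DFR sum, with a log2 difference of 1.62 (SE 0.45, limma adjusted p = 0.0320). The other DFR transcripts, Cluster-90241.5 and Cluster-90241.6, had log2 differences of 1.12 and 1.01 that did not pass (limma, adjusted p = 0.0845 and 0.110).

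The main F3H transcript, Cluster-88339.0, had 1050, 1319 and 639 FPKM in SZT and 1815, 1847 and 1587 FPKM in MN. Its libraries did not overlap and it rose by 0.86 on the log2 scale (SE 0.26, limma adjusted p = 0.0469). Without SZT replicate 3, neither of these transcripts passed (limma, adjusted p = 0.0652 for Cluster-90241.3 and 0.194 for Cluster-88339.0). Cluster-90241.3 was also lost without MN replicate 1, 2 or 3 (limma, adjusted p = 0.0513, 0.123 and 0.0534). So was Cluster-88339.0 (limma, adjusted p = 0.0937, 0.139 and 0.0614), which did not pass without SZT replicate 1 either (limma, adjusted p = 0.0689). Cluster-88339.5, the next in level, had 480, 752 and 378 FPKM in SZT and 1124, 707 and 680 FPKM in MN, with 1 SZT library among those of MN. The 5 F3H transcripts other than Cluster-88339.0 had log2 differences between 0.56, for Cluster-81276.1, and 1.01, for Cluster-81276.6, and none passed.

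The most abundant CHS transcript, Cluster-72978.11, had 3788, 3443 and 2394 FPKM in SZT and 3322, 3459 and 3879 FPKM in MN. Cluster-72978.8 had 1927, 2830 and 708 FPKM in SZT and 1665, 1758 and 1976 FPKM in MN. These libraries overlapped, as did those of the other 4 CHS transcripts, whose log2 differences ranged up to 0.72 for Cluster-72978.5. The most abundant ANS transcript, Cluster-21086.8, had 1874, 2285 and 570 FPKM in SZT and 2552, 1688 and 2161 FPKM in MN. Among the minor ANS transcripts, Cluster-21086.3 had a log2 difference of -0.90 (limma, adjusted p = 0.298) and Cluster-21086.7 one of 0.02 (limma, adjusted p = 0.991). Without SZT replicate 3, Cluster-21086.3 passed as lower in MN, at -1.65 (limma, adjusted p = 0.0203).

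The regulators on the study's list were taken next. Of its 49 transcription factors, all of which passed the filter, 3 rose and 3 fell in MN at an adjusted p under 0.05, beside 3.68% and 3.4% of all tested transcripts, with a median log2 difference of 0.15. Of the 84 transcripts of the whole list that passed the filter, 6 rose and 6 fell, beside the same shares. The libraries did not overlap for 11 that were higher and 12 that were lower in MN, beside 11.6% and 10.5% of all tested transcripts. None of the 84 met the stricter rule used across all transcripts, an absolute log2 difference of at least 1 with an adjusted p of at most 0.001. The 6 that rose were 1 without MN replicate 2 and 3 without MN replicate 1 or SZT replicate 3, and the 6 that fell were 1 without MN replicate 2 or SZT replicate 2 and 3 without SZT replicate 1. As for the enzymes, the list was chosen on these samples and is not independent evidence.

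Among 9 MYB transcripts, only MYB_3 (Cluster-103605.1) passed. It had 11.2, 14.4 and 14.0 FPKM in SZT and 20.5, 22.3 and 18.7 FPKM in MN. Every MN library lay above every SZT library, and the log2 difference was 0.60 (SE 0.14, limma adjusted p = 0.0112). Without MN replicate 2 or SZT replicate 1 it did not pass (limma, adjusted p = 0.0611 and 0.0535). None of the 4 bHLH transcripts passed, and bHLH_1 (Cluster-18705.3) and bHLH_4 (Cluster-97329.0) had the largest log2 differences of them, 0.47 and 0.31 (limma, adjusted p = 0.137 and 0.480). Neither did any of 5 B3 factors, a plant family of DNA-binding proteins, where B3_5 (Cluster-92785.4) had 0.59 and B3_2 (Cluster-63755.0) 0.40 (limma, adjusted p = 0.305 and 0.508). Among 5 zinc finger factors, none passed, and C2H2_2 (Cluster-99976.1) and C2C2 (Cluster-74798.6) had log2 differences of -0.52 and -0.43 (limma, adjusted p = 0.254 and 0.695).

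In the group of flower development factors, the GRF transcript Cluster-36771.0 rose. Growth-regulating factors promote cell proliferation in growing plant organs. It had 4.35, 3.34 and 9.37 FPKM in SZT and 20.2, 18.9 and 11.1 FPKM in MN. The lowest MN library lay just above the highest SZT library, with a log2 difference of 1.47 (SE 0.31, limma adjusted p = 0.00706). It passed with each of the 6 libraries left out in turn. Of the other 6 flower development factors, none passed. The DDT transcript Cluster-93981.0, in the chromatin group, also rose, from 4.02, 3.60 and 3.25 FPKM to 6.13, 9.68 and 7 FPKM, a log2 difference of 0.88 (SE 0.24, limma adjusted p = 0.0292). It did not pass without MN replicate 2, SZT replicate 2 or SZT replicate 3 (limma, adjusted p = 0.144, 0.0579 and 0.0688).

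The homeodomain-leucine zipper transcript Cluster-87964.0 fell. It had 202, 285 and 184 FPKM in SZT and 93.8, 92.9 and 105.9 FPKM in MN. The cultivars were well apart, by -1.17 on the log2 scale (SE 0.23, limma adjusted p = 0.00525), and it passed with each of the 6 libraries left out in turn. A pair of bZIP transcripts that the study lists under sucrose induced translational repression fell as well. In plants, such bZIP messages carry an upstream reading frame through which sucrose lowers their translation. Cluster-73402.0 had 199.96, 229 and 84.5 FPKM in SZT and 41.9, 56.7 and 80.2 FPKM in MN. Cluster-73402.1 had 91.9, 91.1 and 29.4 FPKM in SZT and 15.2, 16.4 and 26.1 FPKM in MN. In both, SZT replicate 3 lay only just above the highest MN library. Their log2 differences were -1.43 and -1.70 (SE 0.35 and 0.39, limma adjusted p = 0.0173 and 0.0133). They share a cluster number, so they may share reads. Without MN replicate 2, SZT replicate 1 or SZT replicate 2 neither passed (limma, adjusted p between 0.0552 and 0.0719), nor did Cluster-73402.0 without MN replicate 1 (limma, adjusted p = 0.0626).

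The list also names transcripts of small RNA pathways. Of 6 listed for the production of miRNAs, 2 fell, beside 3.4% of all tested transcripts, and all 6 had a log2 difference below 0, beside 49.7%, with a median of -1.05. All 6 carry the cluster number Cluster-100695, so they are not 6 separate measurements. Cluster-100695.13 had 20.4, 27.7 and 14.8 FPKM in SZT and 10.9, 6.49 and 6.84 FPKM in MN. Cluster-100695.7 had 19.1, 24.9 and 9.37 FPKM in SZT and 7.25, 0.83 and 7 FPKM in MN. Neither overlapped between the cultivars, with log2 differences of -1.26 and -1.83 (SE 0.29 and 0.49, limma adjusted p = 0.0123 and 0.0282). Neither passed without MN replicate 2 or without SZT replicate 2 (limma, adjusted p = 0.0634 and 0.0535 for Cluster-100695.13, 0.172 and 0.100 for Cluster-100695.7), nor did Cluster-100695.7 without SZT replicate 1 (limma, adjusted p = 0.0766). Summed over the 22 transcripts with that number, FPKM was 373, 375 and 378 in SZT and 271, 279 and 282 in MN. This sum was closer among replicates than these single transcripts and gave a smaller log2 difference, -0.44 (SE 0.12, limma adjusted p = 0.0274).

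Of 6 transcripts listed for positive regulation of posttranscriptional gene silencing, 1 fell, beside 3.4% of all tested transcripts. All 6 had a log2 difference below 0, beside 49.7%, with a median of -0.71. Here 5 of the 6 share the number Cluster-94053. Cluster-94053.12 had 33.5, 42.8 and 57.6 FPKM in SZT and 23.8, 20.3 and 26.8 FPKM in MN, without overlap, and a log2 difference of -0.86 (SE 0.26, limma adjusted p = 0.0447). It passed with only 1 of the 6 libraries left out, SZT replicate 1. The sum over that number had a log2 difference of -0.37 (SE 0.13, limma adjusted p = 0.0847). Of 6 transcripts listed for floral meristem determinacy, the process that ends growth at the flower's center, 1 rose, beside 3.68% of all tested transcripts. All 6 had a log2 difference above 0, beside 50.3%, with a median of 0.38. The riser, Cluster-41979.0, had 2.33, 0.86 and 3.38 FPKM in SZT and 5.23, 8.22 and 3.17 FPKM in MN. Its libraries overlapped, and its log2 difference was 1.05 (SE 0.31, limma adjusted p = 0.0476). It did not pass without MN replicate 1, SZT replicate 1 or SZT replicate 2 (limma, adjusted p = 0.0772, 0.0674 and 0.178), and without MN replicate 2 it fell below the filter and was not tested.

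**Figure D2:**
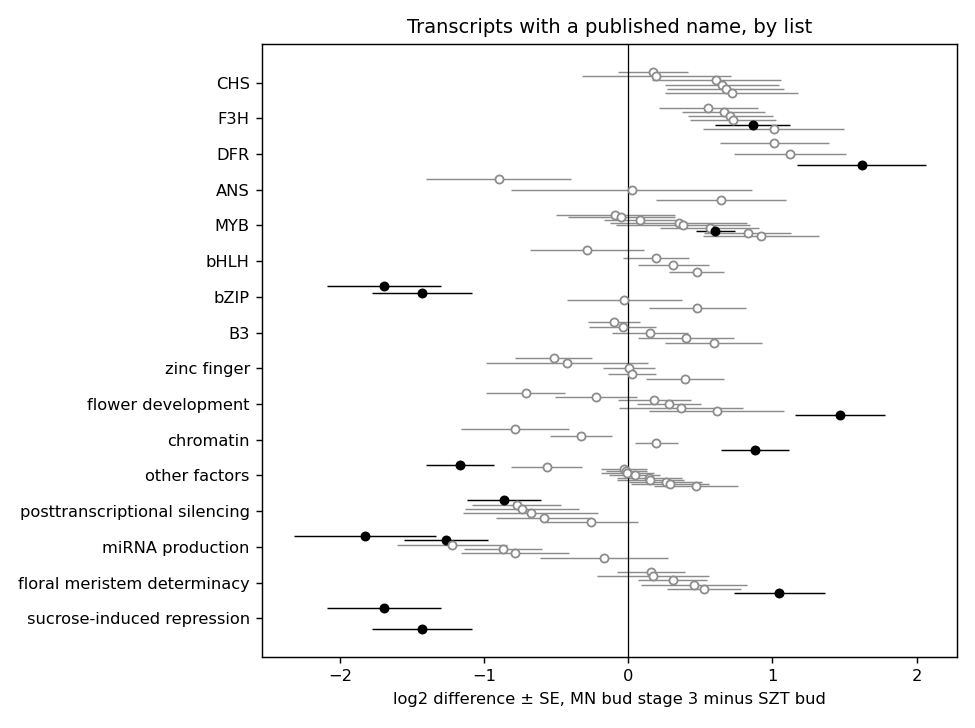
Log2 difference, MN bud stage 3 minus SZT bud, with its SE (bars), for each transcript that the study's list names and that passed the filter, by group. Filled points are the 12 transcripts with an adjusted p under 0.05, 6 on each side of 0, and a transcript in more than 1 group is drawn in each.

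Across all 35479 tested transcripts, 140 (0.395%) met the stricter rule, of which 83 (0.234%) were higher and 57 (0.161%) lower in MN late buds. At an adjusted p under 0.05 without a minimum difference, 2512 (7.08%) differed. The median absolute log2 difference of all tested transcripts was 0.38, with 5th and 95th percentiles of the log2 difference at -1.44 and 1.49. An absolute log2 difference of at least 1 was seen in 6633 (18.7%) of them. For all 140 called transcripts the libraries of the cultivars did not overlap, which held for 22.1% of all tested transcripts. Of the 83 higher in MN, 65 passed the filter only in MN. Of the 57 lower in MN, 22 passed it only in SZT. The number of calls was 394 without SZT replicate 3, 52 without MN replicate 2, 82 without SZT replicate 1 and 85 without SZT replicate 2. With a pseudocount of 0.01 in place of 1, 69 were called and most were lower in MN, 49 against 20, and limma on the 6 libraries alone called 1 transcript, with 5125 at an unadjusted p under 0.05.

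**Figure D3:**
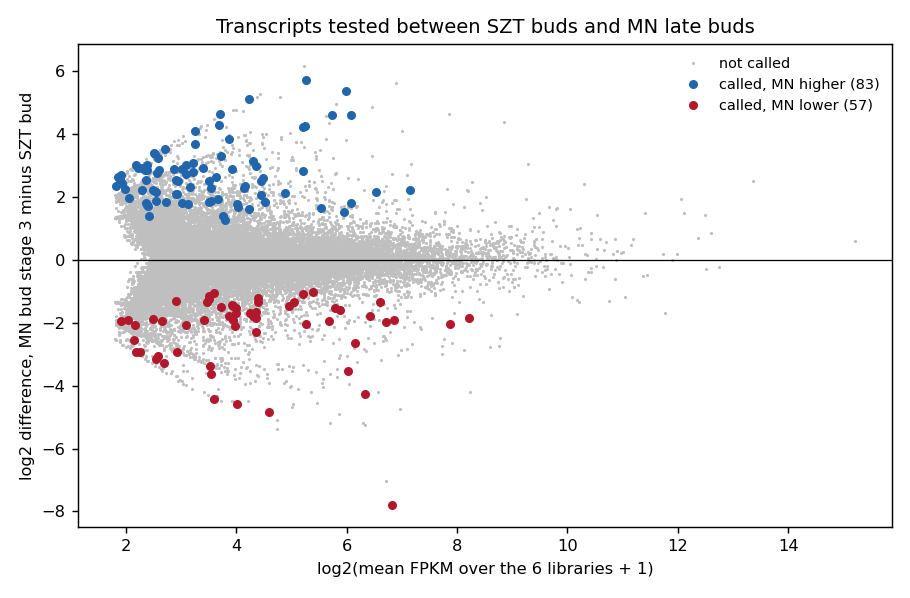
Log2 difference, MN bud stage 3 minus SZT bud, against log2(mean FPKM over the 6 libraries + 1) for the 35479 tested transcripts, with the 83 called higher and the 57 called lower in MN in color. The called transcripts lie mostly at low and middle expression, and Cluster-50471.0 lies lowest, at -7.79.

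The largest differences belonged to transcripts without a name in the sources used here. Where all libraries of a cultivar are listed at 0, the log2(FPKM + 1) difference depends on the pseudocount and is not a fold change. Cluster-50471.0 had 230, 168 and 276 FPKM in SZT buds and was listed at 0 in all 3 MN late buds. It was the only transcript called when the 6 libraries were fitted alone, and it was called with each library left out in turn (limma, adjusted p = 2.14e-07 in the fit on all libraries). Elsewhere in MN it had 6.61, 0 and 0 FPKM at bud stage 1, between 44.1 and 112 FPKM at the initial flowering stage and between 17.8 and 27.9 FPKM at full bloom. So it was near 0 in MN buds and not in MN as a cultivar. The 14 transcripts with that cluster number summed to 1299, 618 and 1552 FPKM in SZT and 246, 356 and 386 FPKM in MN, a log2 difference of -1.73 that did not pass (SE 0.77, limma adjusted p = 0.183).

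Cluster-2344.0 had 11.5, 16.0 and 110.9 FPKM in SZT buds and was listed at 0 in MN late buds. Outside SZT buds, it was above 0 in only 1 of the other 24 libraries, a TZM bud at 10.9 FPKM. Cluster-79737.0 had 7.47, 53.8 and 29.7 FPKM in SZT buds and was listed at 0 in all 6 bud libraries of MN. It had 114, 93.0 and 110.4 FPKM at the initial flowering stage of MN and was listed at 0 in all 6 TZM libraries. Cluster-72426.3 had 197, 180 and 78.1 FPKM in SZT and 5.13, 4.46 and 10.5 FPKM in MN. Every SZT bud library lay far above every MN late bud library, with a log2 difference of -4.28 (SE 0.57, limma adjusted p = 0.000183). At the initial flowering stage of MN it had 354, 312 and 300 FPKM, so it was not low throughout MN. The sum over its cluster number fell alike, by 4.19 on the log2 scale. The other large falls were those of Cluster-93649.15, Cluster-93911.10, Cluster-100328.138, Cluster-73434.2, Cluster-61698.0 and Cluster-106613.0, from -4.44 to -3.16 on the log2(FPKM + 1) scale. Of the 10 largest falls, 9 lost their call with at least 1 library left out, the exception being Cluster-50471.0.

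The largest rise was that of Cluster-21111.0, with 0, 0 and 1.94 FPKM in SZT and 66.4, 74.0 and 82.9 FPKM in MN. The log2 difference was 5.71 (SE 0.37, limma adjusted p = 3.07e-08). It already had 13.8, 17.3 and 22.4 FPKM at bud stage 1 of MN and was at or near 0 in MN from the initial flowering stage on. Cluster-39360.1 had 1.78, 0.45 and 5.14 FPKM in SZT and 111, 92.6 and 162 FPKM in MN, a log2 difference of 5.36 (SE 0.41, limma adjusted p = 2.18e-07). Both were called with each library left out in turn.

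Cluster-48183.0 and Cluster-88125.12 were listed at 0 in all SZT libraries and at bud stage 1 of MN. Cluster-48183.0 had 21.03, 38.0 and 47.3 FPKM in MN late buds, and 16.9 FPKM in 1 library of the initial flowering stage. Cluster-88125.12 had 23.2, 19.2 and 29.4 FPKM in MN late buds, and 6.67 and 10.5 FPKM in 2 libraries of the initial flowering stage. Neither was above 0 in any other library of the series. The 13 transcripts with the cluster number of Cluster-88125.12 gave 238, 247 and 260 FPKM in SZT and 183, 192 and 263 FPKM in MN, so the total under that number did not rise.

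Cluster-1525.7 had 4.87, 2.14 and 6.60 FPKM in SZT and 95.2, 139 and 151 FPKM in MN, and the sum over the 39 transcripts of its number rose by 3.40 on the log2 scale (SE 0.45, limma adjusted p = 0.000205). Cluster-1525.33 has the same number. The other large rises, those of Cluster-58689.0, Cluster-108105.0, Cluster-80855.0 and Cluster-1449.8, ranged from 4.08 to 4.59. Without MN replicate 2, Cluster-48183.0, Cluster-108105.0 and Cluster-80855.0 lost their call (limma, adjusted p = 0.00148, 0.00239 and 0.00227), and Cluster-80855.0 also did without SZT replicate 2 (limma, adjusted p = 0.00141).

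The most abundant called transcripts changed less. Cluster-97142.1 had 31.3, 64.3 and 56.7 FPKM in SZT and 271, 232 and 193 FPKM in MN, a log2 difference of 2.22 (SE 0.28, limma adjusted p = 0.000116). Cluster-25846.1 had 30.5, 29.2 and 28.8 FPKM in SZT and 103, 108 and 102 FPKM in MN. Its replicates lay within a few FPKM of each other in both cultivars, and its log2 difference was 1.79 (SE 0.22, limma adjusted p = 7.34e-05). Cluster-32185.5 had 491, 495 and 405 FPKM in SZT and 137, 121 and 125 FPKM in MN, a log2 difference of -1.85 (SE 0.20, limma adjusted p = 2.82e-05). These 3 were called with each library left out in turn. Cluster-70298.1, Cluster-81174.10 and Cluster-107045.5 had log2 differences of 2.14, -2.06 and -1.92. Cluster-107045.5 lost its call without MN replicate 2, and the others lost it with 5 of the 6 libraries left out.

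To see whether single transcripts spoke for their cluster number, FPKM was summed over all transcripts with the same number, and 86 of 20218 sums (0.425%) were called. Of the 140 called transcripts, 42 had no other under their number. Of the remaining 98, the sum was called in the same direction for 31 and had the opposite sign for 8. The sources used here do not say what the number stands for.

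Levels in the other groups showed where the called transcripts were otherwise present. The 83 higher in MN late buds had a median group mean of 15.6 FPKM there, 8.81 at bud stage 1 of MN and at most 1.57 in every other group, SZT buds included. The 57 lower in MN late buds had a median of 6.02 FPKM there and 10.8 at bud stage 1 of MN. In the other 7 groups their median lay between 23.4, in SZT buds, and 38.0, at the initial flowering stage of MN. SZT and MN late buds chose these transcripts, so the values of these groups describe that choice.

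**Figure D4:**
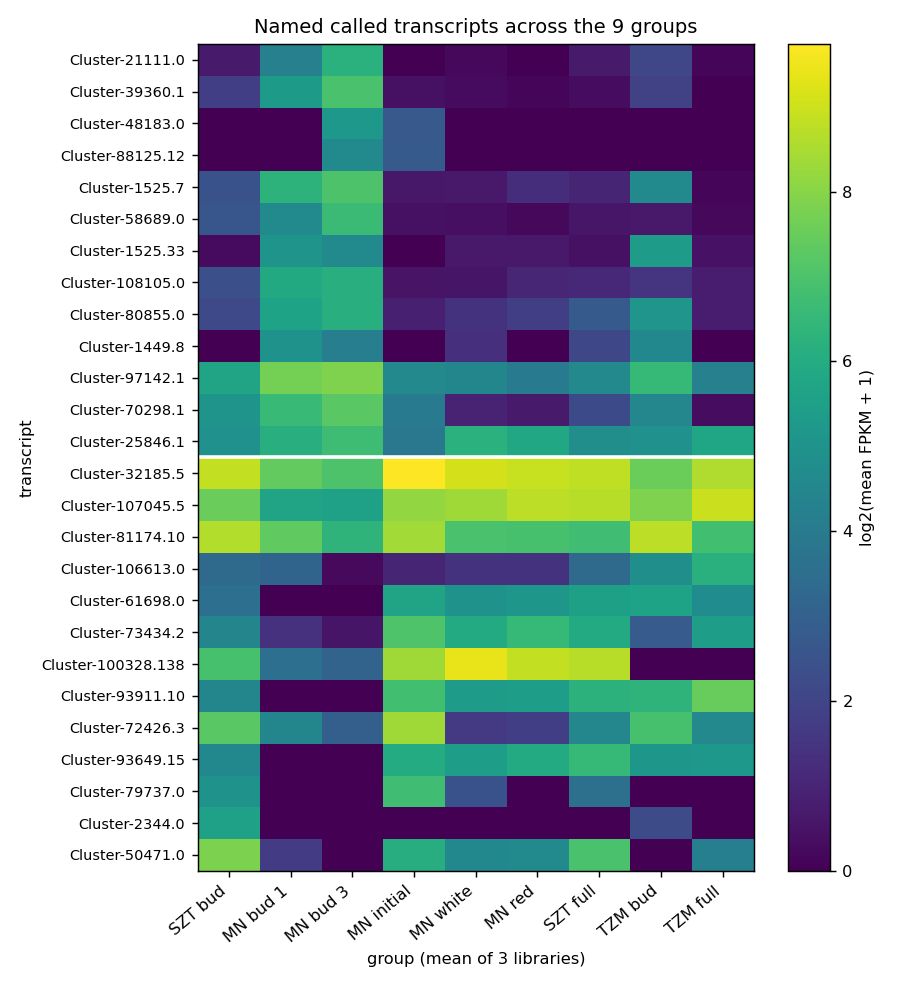
Log2(mean FPKM + 1) of the named called transcripts in the 9 groups of 3 libraries, with those higher in MN late buds above the white line and those lower below it. Cluster-48183.0 and Cluster-88125.12 appear only at MN bud stage 3 and the initial flowering stage, and Cluster-50471.0 is at 0 at MN bud stage 3 and present at the later stages of MN.

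The cultivars were compared again at full bloom, with the mean of MN's white and red regions against SZT. The values came from libraries other than those of the buds, though the fit took its spread from all 27 libraries, and 1079 (3.04%) of the tested transcripts were called. Of the 83 transcripts higher in MN late buds, 2 (2.41%) were called higher in MN at full bloom, beside 1.67% of all tested transcripts, and 9 were called lower, beside 1.37%. Most of these 83 passed the filter only through MN late buds, and their median group mean at full bloom was 0.19 FPKM in SZT and 0.14 FPKM in each region of MN, so nothing is read from these counts. Of the 57 lower in MN late buds, 3 (5.26%) were called lower again and 5 were called higher. The 1079 calls were 591 without full-bloom SZT replicate 2 and 514 without its replicate 3.

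The 5 transcripts called in the same direction at both stages were Cluster-25846.1, Cluster-72426.3, Cluster-106613.0, Cluster-86352.0 and Cluster-89223.5. The last 2 were chosen after their values were seen. In MN at initial flowering, not sampled in SZT, Cluster-25846.1 had 14.2, 14.6 and 13.5 FPKM and Cluster-89223.5 0.25, 0.64 and 1.36 FPKM. Cluster-72426.3 had 354, 312 and 300 FPKM there, Cluster-86352.0 33.5, 41.7 and 39.0 FPKM and Cluster-106613.0 0.21, 0.88 and 1.89 FPKM. These calls do not cover that stage. At full bloom, Cluster-86352.0 was lower than in SZT only in MN's white region, with the red region at 0.55 on the log2 scale. Cluster-25846.1 had 18.4, 37.6 and 26.3 FPKM in SZT at full bloom, 48.9, 75.6 and 94.2 in MN's white region and 65.6, 43.1 and 55.9 in its red region. All full-bloom MN libraries lay above all full-bloom SZT libraries, with a log2 difference of 1.20 (SE 0.19, limma adjusted p = 0.000163). Cluster-72426.3 had 10.7, 25.1 and 29.0 FPKM in SZT at full bloom and at most 3.89 FPKM in either region of MN, a log2 difference of -2.79 (SE 0.49, limma adjusted p = 0.000462). Cluster-89223.5 had 1.67, 1.14 and 3.09 FPKM in SZT buds and 11.8, 8.77 and 7.33 FPKM in MN late buds. At full bloom it had at most 2.07 FPKM in SZT and at least 6.17 FPKM in MN, a log2 difference of 1.90 (limma, SE 0.24). Its bud call held only without SZT replicate 3 and was lost without any other 1 of the bud libraries (limma, adjusted p between 0.00104 and 0.00427). The count of 5 was 1 without MN replicate 2, 1 without SZT replicate 2, 2 without SZT replicate 1 and 3 without MN replicate 1, and it was also 3 without white-region replicate 1, red-region replicate 2 or any 1 of the full-bloom SZT libraries.

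**Figure D5:**
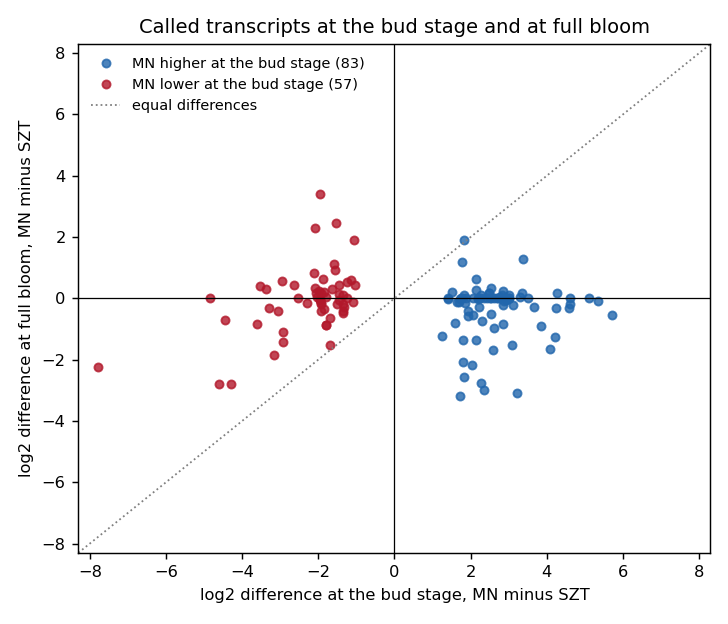
Log2 difference between MN and SZT at full bloom (mean of both MN regions minus SZT) against that at the bud stage (MN bud stage 3 minus SZT bud) for the 140 called transcripts, with a dotted line of equal differences. Most points lie near 0 on the full-bloom axis, 22 of the 83 higher in MN buds at exactly 0.

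Among the enzymes, the CHS sum differed between the stages. Its log2 difference of 0.30 at the bud stage stood against -1.90 at full bloom (SE 0.25, limma adjusted p = 2.85e-05). At full bloom it was -3.20 for MN's white region (limma, adjusted p = 5.69e-07) and -0.60 for its red one, which did not pass (limma, adjusted p = 0.223). The difference between the stages was 2.20 (limma interaction, SE 0.39, adjusted p = 0.000822), beside 14.3% of all tested transcripts that passed an interaction at an adjusted p under 0.05. For F3H, DFR and ANS the interaction did not pass (limma, adjusted p = 0.0578, 0.293 and 0.186).

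The white cultivar TZM (Tongzimian) gave the change from bud to full bloom in 6 further libraries. Of the 57 transcripts lower in MN late buds, 15 (26.3%) were called higher at full bloom than in the bud of TZM, beside 3.46% of all tested transcripts, and 6 (10.5%) lower, beside 13.6%. Of the 83 higher in MN late buds, 21 (25.3%) were called lower at full bloom in TZM and 2 (2.41%) higher. Over all tested transcripts these shares were 13.6% and 3.46%. Most of these 83 passed the filter only through MN late buds. Their median group mean was 0.77 FPKM in TZM buds and 0.087 FPKM in TZM at full bloom, so nothing is read from these counts. Cluster-70298.1, higher in MN late buds, fell by 4.17 on the log2 scale from bud to full bloom of TZM (adjusted p = 3.02e-09 in limma). Cluster-73434.2, lower in MN late buds, rose by 2.62 (limma, adjusted p = 0.000160). Cluster-72426.3 and Cluster-81174.10, also lower in MN late buds, went the other way. They fell by 2.61 and 1.97 from bud to full bloom of TZM (limma, adjusted p = 0.00083 and 3.17e-05). The part of bud age in the difference between SZT buds and MN late buds was not tested.

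Presence and absence were counted last, with no test. In SZT buds, 606 transcripts with a mean of at least 5 FPKM were listed at 0 in all 3 MN late buds, and only 100 of them were above 0 in every SZT bud library, while 258 were above 0 in 1 library only. In MN late buds, 721 were listed at 0 in all 3 SZT buds, of which 100 were above 0 in every library and 391 in 1 only. Over the whole series, 52 of the 606 were at 0 in all 15 MN libraries and 394 of the 721 in all 6 SZT libraries. A 0 in all 15 libraries is harder to meet than a 0 in all 6, so these counts cannot be compared. None of the transcripts was at 0 in all libraries of the other cultivar and above 0 in every library of its own.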

How the data were processed

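RNA sequencing was measured in petals of 27 libraries, 3 for each of 9 groups, and 6 libraries entered the comparison. The authors trimmed reads with Trimmomatic 0.36, assembled transcripts with Trinity and mapped reads to them. The mapper and the program that quantified expression are not named in the Methods or the labels. The deposited FPKM values were made by the authors, carry 2 decimals and have no expression filter. Read totals per library were not used here, so the reads behind a value are not known, and low values are the least precise.

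Values were tested as log2(FPKM + 1) with limma 3.58.1 in R 4.3.3, with a trend on mean expression. All 27 libraries shared 1 fit with a mean per group, and p-values were Benjamini-Hochberg adjusted over the 35479 transcripts whose mean FPKM reached 5 in either group. Calls needed a log2 difference of 1 or more in size and an adjusted p of at most 0.001. Lists and the 5 enzyme sums, added to the fit, were read at an adjusted p under 0.05. DEGseq, named in the Methods, needs read counts and was not run.

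Names came from the study's list, without its values. Transcripts named here are the enzyme transcripts (minor ones by their range), other listed transcripts past the threshold or otherwise the 2 of a list with the largest difference, and the called transcripts with the 10 largest rises, the 10 largest falls and the 3 highest means in each direction. The members and lists were chosen with earlier results of these data known. The scripts were tested on simulated data. Alternatives covered the pseudocount, the filter, scaling, a replicate block, the 6 libraries alone, array weights, thresholds and each library left out. Functional annotation and transcript sequences were not used here. Plots used pandas 2.3.3 and matplotlib 3.10.9.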

Additional observations from a re-analysis of the deposited data

Results flagged for a closer look

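The cultivar difference at the bud stage differed from that at full bloom in 28 named transcripts and in the CHS sum, by limma's interaction at an adjusted p under 0.05. The transcripts named in this report were 28 called ones and 34 listed ones. Of all tested transcripts, 14.3% passed the same interaction. Values are bud minus full-bloom log2 differences. The called transcripts were named for their large bud difference, so a smaller difference at full bloom is partly set by that choice.

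Among transcripts higher in MN late buds, the interaction was 6.25 for Cluster-21111.0, 5.45 for Cluster-39360.1, 5.72 for Cluster-1449.8, 5.48 for Cluster-80855.0, 5.11 for Cluster-48183.0, 4.89 for Cluster-58689.0 and 4.79 for Cluster-1525.7. It was 4.62 for Cluster-88125.12, 4.57 for Cluster-108105.0, 4.09 for Cluster-1525.33, 3.49 for Cluster-70298.1 and 2.50 for Cluster-97142.1. The full-bloom difference was lowest for Cluster-1449.8, Cluster-70298.1 and Cluster-80855.0, at -1.65, -1.35 and -1.26.

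Among transcripts lower in MN late buds, it was -5.54 for Cluster-50471.0, -4.85 for Cluster-2344.0, -3.92 for Cluster-100328.138, -3.73 for Cluster-93649.15, -3.66 for Cluster-73434.2 and -2.97 for Cluster-61698.0. It was -2.79 for Cluster-93911.10, -2.24 for Cluster-81174.10, -2.06 for Cluster-32185.5 and -1.77 for Cluster-107045.5.

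Among the listed transcripts, it was 2.56 for the CHS transcript Cluster-72978.11 and 2.20 for the CHS sum, 1.57 for MYB_3 (Cluster-103605.1), 1.35 for the GRF transcript Cluster-36771.0, and 1.14 and 1.18 for the F3H transcripts Cluster-88339.0 and Cluster-88339.4. For the miRNA production transcript Cluster-100695.13 it was -1.38. MYB_3 was higher in MN at the bud stage and lower at full bloom, with log2 differences of 0.60 and -0.96.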

How the results depend on the processing

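The count of 140 called transcripts was 69 with a pseudocount of 0.01, 33 with the filter in both groups, 303 without a filter, 264 with array weights, 1596 at an adjusted p under 0.05, 1 with the 6 libraries alone and 52 to 394 with 1 library left out. With the replicate number as a block it was 80. The same-numbered SZT and MN libraries did not deviate together (r from -0.07 to 0.00). With 3 libraries a group this cannot show whether they shared a batch, and the labels give them only a replicate number. The 5 calls shared with full bloom were 2 with that pseudocount, 3 with a filter of 10 or of 5 in both groups, 1 with the replicate block, 14 with array weights and 1 to 7 with 1 library left out. The 6 listed transcripts that rose were 0 with that pseudocount, 3 with the filter in both groups or none, 2 with array weights and 0 with the 6 libraries alone, where the 6 that fell were also 0. With 1 library left out, 1 to 6 rose and 1 to 8 fell. The DFR difference was 1.61 with that pseudocount, 1.60 without a filter, 1.60 with the 6 libraries alone and 0.96 with array weights (limma, adjusted p = 0.0518, 0.0581, 0.371 and 0.111), and 0.72 to 2.12 with 1 library left out. F3H passed as its most abundant transcript, at 0.86, and ranged from 0.48 to 1.05, CHS from -0.091 to 0.55, ANS from 0.01 to 1.02 and ANR from -0.43 to 0.084. ANR could not be run as 1 transcript, since none passed the filter. The ANR difference of -0.09 turned to 0.084 without MN replicate 1 or 3 and to 0.046 without SZT replicate 1. Cluster-21086.7 turned to -0.042 with median-ratio scaling and -0.59 with array weights, and ranged from -1.35 to 0.81 with 1 library left out, below 0 without MN replicate 1 (-0.31), MN replicate 3 (-0.041) or SZT replicate 3. Cluster-72978.7 turned to -0.011 with array weights. With 1 library left out, Cluster-72978.7 ranged from -0.0056 to 1.19, Cluster-72978.11 from -0.026 to 0.30, Cluster-72978.8 from -0.38 to 0.62 and Cluster-81276.1 from -0.024 to 0.97, with the lowest value without SZT replicate 3. The 1079 calls at full bloom were 583 in the red region alone and 514 to 1034 with 1 library left out. The called cluster sums were 54 at a filter of 10. With a mean of at least 10 and every library of the group above 0, 46 transcripts of SZT buds were listed at 0 in MN late buds. By the same rule, 43 transcripts of MN late buds were listed at 0 in SZT buds. The causes were not tested. Leaving out the full-bloom and TZM libraries was added after seeing the data. In TZM, 12 to 17 of the 57 and 16 to 18 of the 83 were then called. Without read totals per library, the precision of low values is not known.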

Other observations

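Cluster-86352.0 carries no name in the sources used here and was chosen after its values were seen. It was called lower in MN at both stages, at full bloom from the mean of both petal regions. Taken by region, it lay below full-bloom SZT only in the white part of the petal. It had 26.7, 37.0 and 20.8 FPKM in SZT buds and 7.62, 6.31 and 9.68 FPKM in MN late buds, a log2 difference of -1.70 (SE 0.24, limma adjusted p = 0.000379). At full bloom it had 0.07, 0.60 and 0.91 FPKM in MN's white region, 23.7, 27.1 and 26.1 FPKM in its red region and 21.2, 13.5 and 17.5 FPKM in SZT. The white region differed from SZT by -3.61 on the log2 scale and the red region by 0.55, which did not pass (adjusted p = 0.162 in limma). In the white cultivar TZM it was not low, with 27.3, 34.7 and 32.4 FPKM in the bud and 38.4, 26.5 and 31.0 FPKM at full bloom. The bud call was lost without MN replicate 1, MN replicate 2, SZT replicate 1 or SZT replicate 2 (limma, adjusted p between 0.00153 and 0.00365).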
